A study of Oryza sativa with 12 samples.

Results

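The effect of the fon2-3 allele on gene expression was followed in dissected rice inflorescence meristems, across the 6 arrays of lines that carry it and the 6 arrays of lines that do not. All 54922 probes of the deposited table were fitted, and the 15829 probes with 1 listed gene, standing for 15140 genes, were described. The lines with fon2-3 were the fon2-3 mutant and the fon2-3 asp1-fe mutant, and the lines without it were WT and the asp1-10 mutant, each with 3 arrays. The fon2-3 mutant was set against WT, and fon2-3 asp1-fe was set against asp1-10. The asp1 allele of fon2-3 asp1-fe was not that of asp1-10, so the comparison between the asp1 mutant lines held a change of asp1 allele as well as fon2-3. All plants grew in soil in pots outdoors, and the meristems were dissected at stages In1 to In2 together with a few bracts. The labels do not say whether arrays of a genotype came from separate plants, so the tests see no more than the spread among these samples, which may be technical.

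FON2 encodes a small secreted peptide of the CLAVATA3 family, which limits the number of stem cells in rice meristems. It acts through FON1, a receptor-like kinase related to CLAVATA1 of Arabidopsis, and fon2 mutants have enlarged floral meristems with extra floral organs. ASP1 encodes a TOPLESS-related corepressor, which joins transcription factors such as Aux/IAA proteins to repress their targets. FON2 and ASP1 were not analysed here, so the mutations themselves were not checked on the arrays. In pieces of tissue such as these, fewer cells of a type and less RNA per cell cannot be told apart.

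Values are log2 signals as deposited, with array medians from 5.51 to 5.60. Over all probes, any 2 arrays had a Pearson correlation of 0.962 to 0.986. On average asp1-10 replicate 3 correlated more with the fon2-3 arrays (0.983) than with the other asp1-10 arrays (0.975), while asp1-10 replicates 1 and 2 had mean correlations of 0.980 and 0.981 within their group. At ASPR2 (LOC4327709), an ASP1-related gene that was high in both asp1 mutant lines, this array read 10.68, beside 11.02 and 10.84 on the other asp1-10 arrays and 8.39 to 9.45 over the fon2-3 and WT arrays. At ASPR2 it therefore read with the asp1 mutant lines. The main counts of genes past the threshold are given with and without this array. Some other counts, such as those of genes without overlap between the groups, are given only with it.

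The main effect of fon2-3, from a limma fit with fon2-3 and asp1 status as factors, passed the threshold at 11 probes, all higher in the fon2-3 lines, among them 4 genes of 15140 (0.0264%). A gene or probe passed where its p, adjusted by the Benjamini-Hochberg method over all 54922 probes, was below 0.05. None of the 1740 named genes was among them. At an unadjusted p below 0.05 there were 3080 genes, or 20.3% of those tested. The same change was also tested against the spread within the 4 genotypes, called the averaged fit below, and then 139 genes passed (0.918%), 96 higher (0.634%) and 43 lower (0.284%). When the main effect was refitted to the 15140 genes alone, with p-values adjusted over them, 242 passed (1.6%), 173 higher (1.14%) and 69 lower (0.456%).

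Leaving out asp1-10 replicate 3 raised the main effect to 1385 genes (9.15%), with 923 higher (6.1%) and 462 lower (3.05%). This array was singled out for its likeness to the fon2-3 arrays, and leaving out such an array favours a larger difference. Passing without it is therefore not separate support for a gene or a list. Leaving out any other single array left between 0 and 4 genes past the threshold of the main effect. In the averaged fit, 1488 genes passed without asp1-10 replicate 3 and 139 without WT replicate 2, and 1 to 6 passed without any other array. All 139 genes of the averaged fit with 12 arrays also passed without asp1-10 replicate 3, and 88 of them passed without WT replicate 2. The numbers of genes called therefore depended strongly on single arrays.

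**Figure D1:**
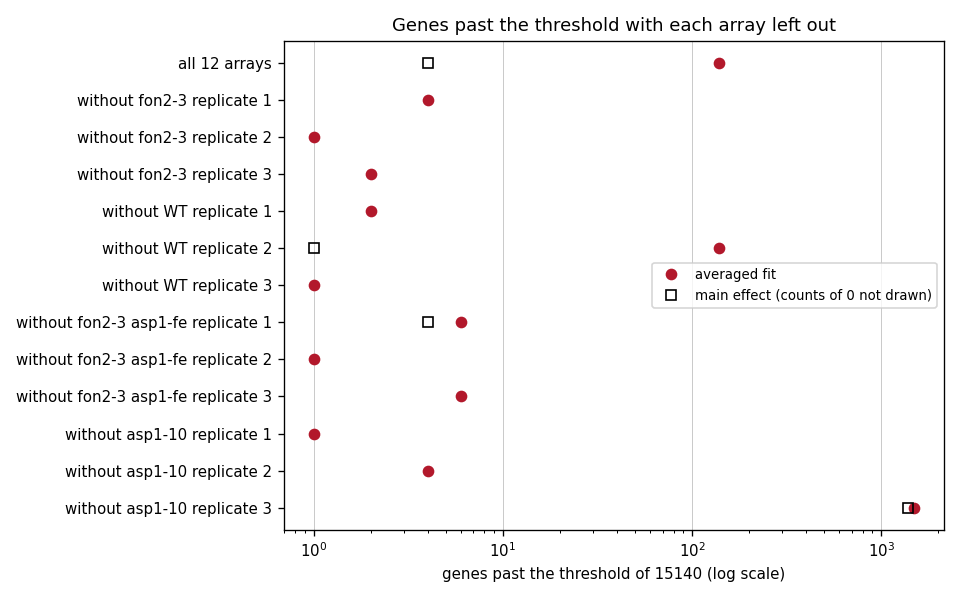
Genes past the threshold of 15140, on a log scale, for all 12 arrays and with each array left out; filled circles are the averaged fit and open squares the main effect, with counts of 0 not drawn. Leaving out asp1-10 replicate 3 gave 1488 genes in the averaged fit and 1385 in the main effect, against 139 and 4 with all arrays.

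The strongest difference lay at probe 15869015, for which no gene was listed. Its log2 signals were 8.11, 7.39 and 8.06 in fon2-3, against 3.99, 4.47 and 4.47 in WT. They were 7.93, 8.14 and 8.13 in fon2-3 asp1-fe, against 4.69, 4.78 and 4.69 in asp1-10. All 6 arrays with fon2-3 lay above all 6 without it, and asp1-10 replicate 3 read with its own genotype. The main effect was 3.44 ± 0.14 (SE), with an adjusted p in limma of 3.1e-07, and the probe passed with each of the 12 arrays left out in turn. The change was 3.54 between fon2-3 and WT (adjusted p in limma 5.7e-05) and 3.35 between fon2-3 asp1-fe and asp1-10 (5.3e-05). Probe 15861060, also with no gene listed, lay between 7.49 and 9.07 in the fon2-3 lines and between 6.15 and 6.65 in the lines without the allele, a main effect of 1.82 ± 0.21 (adjusted p in limma 0.024).

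The 4 genes past the threshold had locus numbers and no name in the gene table. LOC4328784 read 6.25, 6.58 and 6.68 in fon2-3, against 4.99, 5.54 and 5.24 in WT. It read 6.73, 6.83 and 6.79 in fon2-3 asp1-fe, against 6.05, 6.05 and 6.01 in asp1-10. The groups with and without fon2-3 did not overlap, though WT lay below asp1-10 on every array. Its main effect was 1.0 ± 0.13 on the log2 scale (SE, adjusted p in limma 0.0426).

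LOC4347398 read 5.86, 6.11 and 6.26 in fon2-3, against 5.07, 5.37 and 5.02 in WT, and 5.85, 6.17 and 6.15 in fon2-3 asp1-fe, against 5.21, 5.34 and 5.53 in asp1-10. LOC4337660 read 8.91, 9.04 and 9.14 in fon2-3, against 8.41, 8.65 and 8.42 in WT, and 9.10, 9.26 and 9.27 in fon2-3 asp1-fe, against 8.37, 8.28 and 8.50 in asp1-10. Neither gene's groups with and without fon2-3 overlapped, and asp1-10 replicate 3 lay with the arrays without the allele at both. LOC4333361 read 7.77, 7.55 and 7.85 in fon2-3, against 6.93, 7.20 and 7.07 in WT, and 7.30, 7.39 and 7.07 in fon2-3 asp1-fe, against 6.20, 6.62 and 6.39 in asp1-10. At LOC4333361 every fon2-3 array lay above every WT array and every fon2-3 asp1-fe array above every asp1-10 array, but the fon2-3 asp1-fe and WT ranges overlapped. The main effects of these 3 genes were 0.81 ± 0.11, 0.68 ± 0.09 and 0.75 ± 0.10 (SE), with an adjusted p in limma of 0.0426 each. Each of the 4 genes kept its direction with every array left out but passed in only 1 or 2 of the 12 leave-one-out fits, among them that without asp1-10 replicate 3.

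Counted without a test of significance, the 6 arrays with fon2-3 lay above the 6 without it at 171 genes (1.13%) and below them at 60 genes (0.396%). Among named genes these counts were 23 higher and 8 lower of 1740.

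The comparisons inside the main effect share no array, but both were tested against a spread estimated within all genotypes. An array outside a comparison could therefore move its count. Between fon2-3 and WT, 866 genes passed (5.72%), 592 higher (3.91%) and 274 lower (1.81%), whereas between fon2-3 asp1-fe and asp1-10 only 3 genes passed (0.0198%), all higher. Without asp1-10 replicate 3 the second comparison gave 39 genes (0.258%), 9 higher (0.0594%) and 30 lower (0.198%). The count between fon2-3 and WT was itself unstable, as it was 0 when fon2-3 replicate 2 was left out, 1 when WT replicate 1 was, 79 when WT replicate 3 was and 213 when fon2-3 replicate 3 was. It was 1329 when asp1-10 replicate 3 was left out and 470 to 747 for any other array.

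The 592 genes higher in fon2-3 than in WT had a median log2 change of 0.70 there, and a median of 0.12 between fon2-3 asp1-fe and asp1-10, where 75.5% of them were positive beside 51.9% of all genes. Without asp1-10 replicate 3 the median was 0.22 and 86.3% were positive, beside 52.7% of all genes. The 274 genes lower in fon2-3 had a median of -0.99 against WT and -0.13 between the asp1 mutant lines, where 69.3% were negative beside 48.1% of all genes. Without asp1-10 replicate 3 that median was -0.27 and 77.0% were negative. Over all 15140 genes the changes of the 2 comparisons had a Pearson correlation of 0.305, and 0.450 without that array, which describes genes and not independent replicates.

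**Figure D2:**
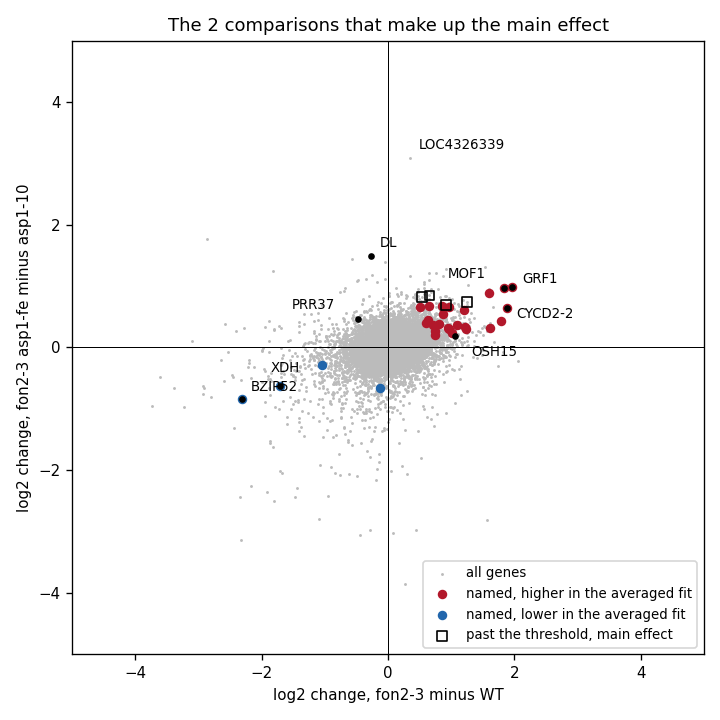
Log2 change in fon2-3 minus WT (horizontal) and in fon2-3 asp1-fe minus asp1-10 (vertical) for 15140 genes; red and blue points are the 28 named genes of the averaged fit, open squares the 4 genes past the threshold of the main effect, and small black points labelled genes. The 24 red points lie above 0 on both axes and the 4 blue points below 0 on both, with GRF1 at 1.97 and 0.99.

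The arrays of the asp1 mutant lines were placed between fon2-3 and WT at the 866 genes called there. The fon2-3 asp1-fe arrays were closer to the fon2-3 mean than to the WT mean at 86.3%, 93.8% and 87.0% of the 592 genes that were higher in fon2-3. The asp1-10 arrays were closer to fon2-3 at 52.0%, 56.1% and 93.6% of the same genes, the last being replicate 3. At the 274 genes lower in fon2-3 the shares were 84.7%, 89.4% and 89.4% for fon2-3 asp1-fe, against 63.5%, 56.2% and 94.2% for asp1-10. At these genes asp1-10 replicate 3 read as the lines with fon2-3 did. What set this array apart was not tested.

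**Figure D3:**
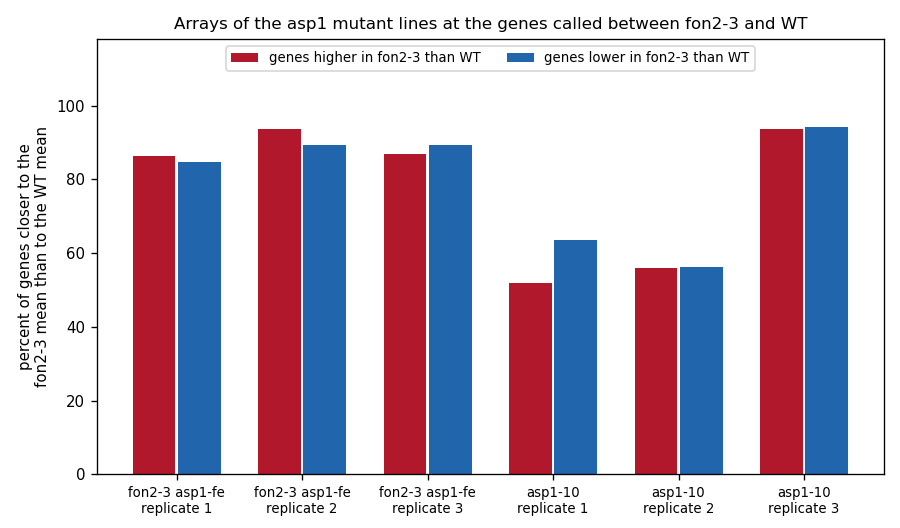
Percent of the genes called between fon2-3 and WT at which each array of the asp1 mutant lines was closer to the fon2-3 mean than to the WT mean, for the 592 genes higher in fon2-3 (red) and the 274 lower (blue). asp1-10 replicate 3 stands at 93.6% and 94.2%, and asp1-10 replicates 1 and 2 between 52.0% and 63.5%.

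Because no named gene passed in the main effect, the named genes below were taken, after their values had been seen, from the averaged fit and from the main effect without asp1-10 replicate 3. In the averaged fit 28 named genes passed, 24 higher and 4 lower in the fon2-3 lines. Of these, 27 also passed in the main effect without asp1-10 replicate 3, the exception being OsPP2C11. These fits share arrays, so passing both is not independent evidence. Each of the 28 passed in only 1 to 3 of the 12 leave-one-out runs of the averaged fit. With other single arrays left out the averaged fit called 22 named genes (without WT replicate 2) or at most 1. The change of each of the 28 kept its sign in every alternative run.

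Among the larger rises of the averaged fit were GRF1 and CYCD2-2. GRF1 (LOC4330903), a growth-regulating factor, read 8.89, 9.74 and 8.88 in fon2-3, against 6.88, 7.52 and 7.20 in WT. It read 8.77, 9.95 and 9.62 in fon2-3 asp1-fe, against 7.63, 8.80 and 8.95 in asp1-10. GRF1 separated fon2-3 from WT by more than 1 log2 unit, whereas the asp1 mutant lines overlapped. Its main effect was 1.48 ± 0.30 (SE), with an adjusted p in limma of 0.0982 in the main effect, 0.0486 in the averaged fit and 0.0109 without asp1-10 replicate 3.

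CYCD2-2 (LOC4343936), a D-type cyclin that acts at entry into the cell cycle, read 9.15, 9.69 and 9.67 in fon2-3, against 7.52, 7.83 and 7.52 in WT. It read 9.89, 9.50 and 9.59 in fon2-3 asp1-fe, against 8.70, 8.61 and 9.75 in asp1-10. All arrays without fon2-3 lay below all arrays with it except asp1-10 replicate 3. The main effect was 1.26 ± 0.26 with all arrays and 1.49 ± 0.18 without that array (adjusted p in limma 0.0982 and 0.00389), and the averaged fit gave 0.039.

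The cell cycle and replication list had 46 measured genes, of which 34 were positive in the main effect, beside 8046 of all 15140 genes. Its median log2 change was 0.16, beside 0.01 over all genes. None passed in the main effect, and 9 passed higher and 1 lower without asp1-10 replicate 3, where 6.1% of all genes were higher and 3.05% lower. Those higher included the D-type cyclins CYCD3-2 and CYCD5-3, the origin recognition subunit ORC4, the replicative helicase subunits MCM2, MCM3 and OsMCM6, and the single-strand binding subunits RPA2A and RPA1B. The A-type cyclin CYCA1-4 was the lower one, with a change of -0.37 without that array. Another grouping, made after the values were seen, took 17 genes of replication origins, helicase, clamp loader, DNA polymerase delta and single-strand binding protein. Most of these belong to the list above, so the groups are not separate. The 17 genes had a median of 0.58, with 16 positive and 9 higher without asp1-10 replicate 3, beside 6.1% of all genes. Those 9 include ORC4, MCM2, MCM3, OsMCM6, RPA2A and RPA1B, named above. RFC2 (LOC4351654), a clamp loader subunit, showed no overlap, with 7.73 to 8.26 in the lines with fon2-3. Its arrays without the allele read 7.41, 7.27 and 7.43 in WT and 7.22, 7.20 and 7.67 in asp1-10.

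RBR1 (LOC4346176), a retinoblastoma-related protein that restrains entry into the cell cycle, passed without asp1-10 replicate 3 with a log2 change of 1.02, against 0.86 with all arrays. PNH1 (LOC9269490), an Argonaute protein of the PINHEAD type, changed by 0.68 with no overlap between the groups and by 0.76 without that array, where it passed. KIN14D (LOC4328800), a kinesin, rose in the averaged fit by 0.60 ± 0.11 and also showed no overlap.

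**Figure D4:**
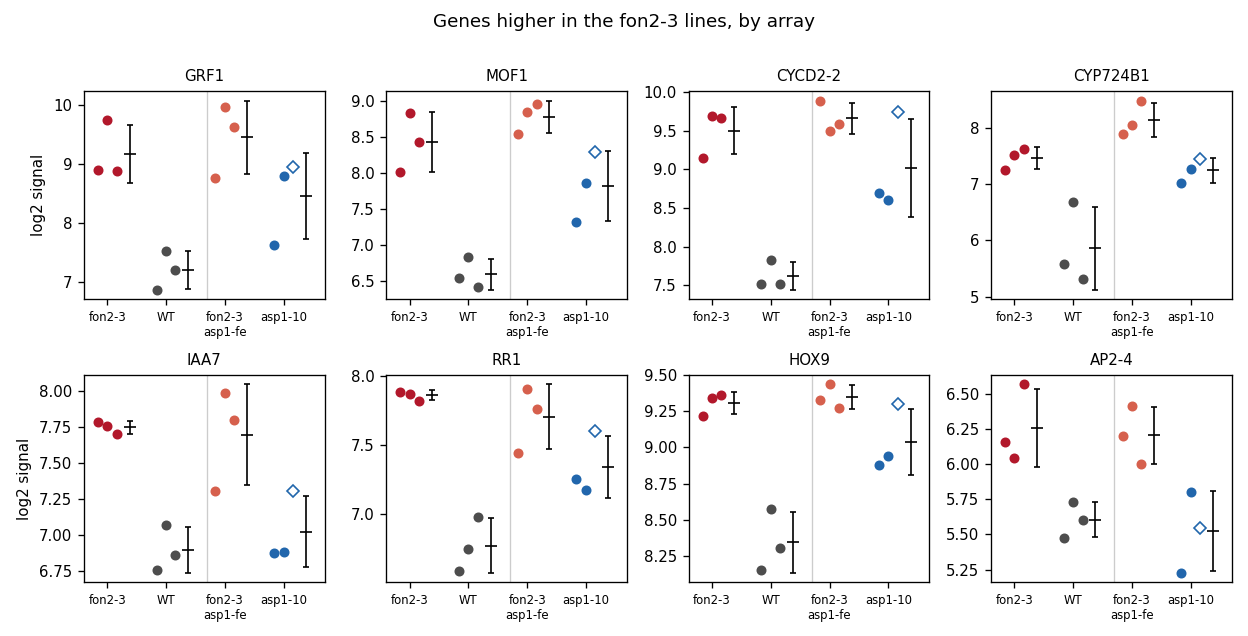
Log2 signal of 8 genes that rose in the averaged fit, by array, in the order fon2-3, WT, fon2-3 asp1-fe and asp1-10; points are arrays, the open diamond is asp1-10 replicate 3, and bars are the mean ± SD of 3 arrays. For CYCD2-2, HOX9 and RR1 the diamond lies at or near the level of the fon2-3 lines, whereas for AP2-4 it lies with the lines without fon2-3.

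Among transcription factors, MOF1 (LOC4336691), a MYB repressor that limits the number of florets in the rice spikelet, read 8.01, 8.85 and 8.43 in fon2-3, against 6.54, 6.83 and 6.42 in WT. It read 8.54, 8.85 and 8.97 in fon2-3 asp1-fe, against 7.32, 7.86 and 8.30 in asp1-10. Within each pair of lines the mutant with fon2-3 lay above its control on every array, and asp1-10 lay above WT. The main effect was 1.40 ± 0.22, with an adjusted p in limma of 0.0739, and of 0.0382 in the averaged fit.

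AP2-4 (LOC9271266) read 6.15, 6.05 and 6.57 in fon2-3, against 5.48, 5.73 and 5.60 in WT. It read 6.20, 6.41 and 6.0 in fon2-3 asp1-fe, against 5.23, 5.80 and 5.54 in asp1-10. The groups with and without fon2-3 did not overlap, and the change was nearly equal in both pairs of lines, 0.65 in fon2-3 and 0.68 in fon2-3 asp1-fe. AP2-4 passed in the averaged fit with an adjusted p in limma of 0.0486.

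PCF5 (LOC4325252), a TCP factor, read 7.03, 6.57 and 7.14 in fon2-3, against 4.99, 5.48 and 4.89 in WT. It read 6.74, 6.12 and 6.31 in fon2-3 asp1-fe, against 5.89, 5.41 and 6.58 in asp1-10, where the lines overlapped through asp1-10 replicate 3. PCF5 rose by 1.11 ± 0.20 in the averaged fit. PCF6 (LOC4334346), another TCP factor, changed by 0.63 with no overlap between the groups, and passed without asp1-10 replicate 3. All 6 measured TCP genes were positive in the main effect, with a median of 0.28, and 2 passed higher without that array, beside 6.1% of all genes.

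The HD-ZIP class III factors, which mark the upper side of leaves and the centre of meristems, were grouped after their values were seen. HOX9 (LOC4348919) read 9.22, 9.34 and 9.36 in fon2-3, against 8.16, 8.57 and 8.31 in WT. It read 9.33, 9.44 and 9.27 in fon2-3 asp1-fe, against 8.88, 8.94 and 9.30 in asp1-10. HOX9 rose by 0.63 ± 0.10 in the averaged fit, and asp1-10 replicate 3 was the only array without fon2-3 inside the range of those with it. HOX32 (LOC4333544) rose by 0.53 ± 0.09 in the averaged fit. At HOX32 asp1-10 replicates 2 and 3 read 9.82 and 9.96, within the fon2-3 range of 9.73 to 9.98. HOX10 and HOX33 changed by 0.44 and 0.55. All 4 passed without asp1-10 replicate 3.

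The list of GRF, DOF and HD-ZIP factors as a whole had 30 genes with a median of 0.21, of which 20 were positive. In the averaged fit 4 were higher, beside 0.634% of all genes, and without asp1-10 replicate 3 there were 10 higher and none lower, beside 6.1% and 3.05% of all genes. Besides GRF1 and the HD-ZIP III genes these included HOX4 (LOC4347333, 1.42 without that array), GRF6 and the zinc-finger factors DOF1 and DOF2. HOX4 read 7.42, 7.98 and 6.98 in fon2-3, against 5.26, 6.26 and 6.05 in WT. It read 8.08, 9.11 and 8.07 in fon2-3 asp1-fe, against 6.98, 7.49 and 7.95 in asp1-10. The asp1-10 arrays thus lay within the range of fon2-3 at HOX4. DOF1 (LOC9267486) read 6.73, 7.45 and 6.74 in fon2-3, against 5.14, 5.60 and 5.33 in WT, but 7.15, 7.36 and 7.84 in fon2-3 asp1-fe, against 6.75, 7.06 and 7.61 in asp1-10. DOF1 rose by 0.96 ± 0.19 in the averaged fit, with a change of 1.62 against WT and of 0.31 between the asp1 mutant lines, which overlapped. The zinc-finger homeodomain gene ZHD1 (LOC4347315) rose by 0.90 ± 0.17 in the averaged fit, and SCR2 (LOC4351362), a SCARECROW-type GRAS factor, by 0.77 ± 0.13. The SCR2 probe was dim, with every genotype mean under 5.55, the median of all values, so its fold can be too small.

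Of the auxin response genes, IAA2 and IAA7 rose in the averaged fit. IAA7 (LOC4328796), an Aux/IAA repressor, read 7.78, 7.76 and 7.70 in fon2-3, against 6.76, 7.07 and 6.86 in WT. It read 7.31, 7.98 and 7.80 in fon2-3 asp1-fe, against 6.88, 6.89 and 7.31 in asp1-10. The highest array without fon2-3, asp1-10 replicate 3, and the lowest with it, fon2-3 asp1-fe replicate 1, met at 7.31. IAA7 rose by 0.76 ± 0.13 in the averaged fit (adjusted p in limma 0.0445), with changes of 0.85 and 0.67 in the comparisons with WT and with asp1-10.

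IAA2 (LOC4326775), of the same family, rose by 0.81 ± 0.13 in the averaged fit, with 7.02 to 7.23 in fon2-3 and 7.24 to 7.77 in fon2-3 asp1-fe, against 5.95 to 6.33 in WT and 6.54 to 7.17 in asp1-10. The auxin response list had 38 genes, 29 of them positive, with a median of 0.11, and 8 passed higher without asp1-10 replicate 3 while none passed lower, beside 6.1% and 3.05% of all genes. Those 8 were IAA2, IAA6, IAA7, the auxin response factors ARF3, ARF5, ARF14 and ARF15, and GH3-8, an enzyme that conjugates auxin to amino acids. FIB (LOC4325198), a tryptophan aminotransferase of auxin synthesis, read 7.62, 7.70 and 7.77 in fon2-3, against 7.14, 7.43 and 7.03 in WT. It read 7.80, 8.06 and 7.81 in fon2-3 asp1-fe, against 6.97, 7.22 and 7.60 in asp1-10. Its groups did not overlap, and it passed without asp1-10 replicate 3 with a change of 0.63.

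Among cytokinin genes RR1 (LOC4335937), a type-A response regulator, read 7.89, 7.87 and 7.82 in fon2-3, against 6.59, 6.75 and 6.98 in WT. It read 7.44, 7.91 and 7.76 in fon2-3 asp1-fe, against 7.25, 7.17 and 7.60 in asp1-10. RR1 rose by 0.73 ± 0.11 in the averaged fit (adjusted p in limma 0.039), with the asp1 mutant lines overlapping through asp1-10 replicate 3. CKX4 (LOC4326515), a cytokinin oxidase that breaks the hormone down, rose by 0.71 ± 0.13 in the averaged fit. RR5 (LOC4336439), another type-A regulator, passed without asp1-10 replicate 3 with a change of 1.11. No other of the 27 listed cytokinin genes passed either of these fits, and the list's median was 0.04.

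For brassinosteroids, CYP724B1 (LOC4336116), a cytochrome P450 of their synthesis, read 7.25, 7.51 and 7.62 in fon2-3, against 5.58, 6.68 and 5.30 in WT. It read 7.88, 8.05 and 8.47 in fon2-3 asp1-fe, against 7.01, 7.27 and 7.44 in asp1-10. Both pairs of lines were separated, and asp1-10 lay between WT and the fon2-3 lines with an overlap. CYP724B1 rose by 1.25 ± 0.21 in the averaged fit (adjusted p in limma 0.0446). All 12 measured genes of the list were positive, with a median of 0.22, where 8046 of all 15140 genes were positive. Of the 12, 3 passed higher without asp1-10 replicate 3 (6.1% of all genes did), namely CYP724B1, the receptor BRI1 (0.41) and CYP90A3 (0.40), a further synthesis gene.

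The other named genes that rose in the averaged fit were the glycosyltransferase GT43A (0.77), the arginine methyltransferases PRMT10 (0.63) and PRMT3 (0.62), the potassium channel AKT1 (0.58), the cellulose-synthase-like gene CSLC2 (0.51), and the CCCH zinc-finger genes OsC3H23 (0.54), OsC3H34 (0.50) and OsC3H53 (0.48). OsC3H23 and OsC3H34 showed no overlap between the groups. The cytosolic ribosomal proteins were positive at all 10 measured genes with a median of 0.22, where 8046 of all 15140 genes were positive. Of the 10, RPS26 alone passed higher without asp1-10 replicate 3, near the 6.1% of all genes that did.

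Fewer named genes were lower in the fon2-3 lines. BZIP52 (LOC4341753), a bZIP factor, read 5.57, 5.08 and 5.54 in fon2-3, against 7.39, 8.33 and 7.39 in WT. It read 5.69, 5.78 and 5.70 in fon2-3 asp1-fe, against 7.04, 6.96 and 5.68 in asp1-10. Only asp1-10 replicate 3 of the arrays without fon2-3 fell within the range of those with it. BZIP52 fell by 1.57 ± 0.25 in the averaged fit (adjusted p in limma 0.039), and its change was -1.85 ± 0.23 without that array.

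XDH (LOC4333171), the xanthine dehydrogenase of purine breakdown, read 8.46, 8.08 and 8.44 in fon2-3, against 10.33, 9.62 and 10.15 in WT. It read 8.43, 8.20 and 8.38 in fon2-3 asp1-fe, against 9.29, 9.47 and 8.12 in asp1-10. The pattern was that of BZIP52, with asp1-10 replicate 3 alone among the low arrays. XDH fell by 1.16 ± 0.22 in the averaged fit (adjusted p in limma 0.0484).

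SWEET4 (LOC4329093), a sugar transporter, read 10.17, 9.99 and 10.42 in fon2-3, against 11.42, 11.06 and 11.26 in WT, and fell by 0.67 ± 0.12 in the averaged fit. It read 10.38, 10.61 and 10.67 in fon2-3 asp1-fe, against 10.87, 11.11 and 10.54 in asp1-10. OsPP2C11 (LOC4328505), a type 2C protein phosphatase, fell by 0.40 ± 0.08 in the averaged fit, with 7.64 to 7.97 in fon2-3 and 7.71 to 7.86 in fon2-3 asp1-fe, against 7.93 to 8.01 in WT and 8.39 to 8.46 in asp1-10. Its change was the larger one between the asp1 mutant lines, -0.66 beside -0.13.

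SAT1 (LOC4324655) gave the smallest adjusted p of the named genes without asp1-10 replicate 3, 0.000332 in limma, with a change of -2.32 ± 0.16. It read 6.33, 5.62 and 6.31 in fon2-3, against 8.48, 8.48 and 8.60 in WT. It read 6.76, 6.08 and 6.52 in fon2-3 asp1-fe, against 8.82, 8.47 and 6.02 in asp1-10. With all arrays the change was -1.87 ± 0.41. The adjusted p in limma was 0.0982 over all probes and 0.0432 in the refit to the genes alone.

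Genes of photosynthesis and plastid pigments were lower more often than higher. The list had 23 genes with a median of -0.21, of which 5 were positive, and without asp1-10 replicate 3 there were 7 lower and 1 higher, beside 3.05% and 6.1% of all genes. PSY1 (LOC4342137), the phytoene synthase of carotenoid synthesis, read 5.89, 5.52 and 6.18 in fon2-3, against 8.47, 7.43 and 8.35 in WT. It read 6.36, 6.02 and 5.81 in fon2-3 asp1-fe, against 6.78, 6.88 and 5.52 in asp1-10. Every WT array lay above every array of the other genotypes, and the main effect of -1.27 ± 0.37 missed the threshold with all arrays (adjusted p in limma 0.133).

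OEE3 (LOC4343515), an oxygen-evolving protein of photosystem II, read 5.11 to 5.86 in fon2-3 and 5.37 to 5.97 in fon2-3 asp1-fe, against 7.47 to 7.51 in WT and 6.75, 6.66 and 4.89 in asp1-10. The chlorophyll b reductase genes NYC1 and NOL, CHLH of chlorophyll synthesis, CHL1 and EGY2 were the other lower members, and GLK2, a factor that promotes chloroplast development, was the higher one. LIR1 (LOC4326442), a light-induced gene outside the list, changed by -2.31 ± 0.45 without asp1-10 replicate 3. The samples held a few bracts, so the markers of bract, leaf and green tissue are given here. The mean of the 8 measured markers lay between 4.94 and 5.19 on the arrays with fon2-3 and between 4.80 and 5.72 on those without, with asp1-10 replicate 3 the lowest. Of these markers 3 were dim and 1, OEE3, passed without that array, and the part of bracts in these changes was not tested.

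**Figure D5:**
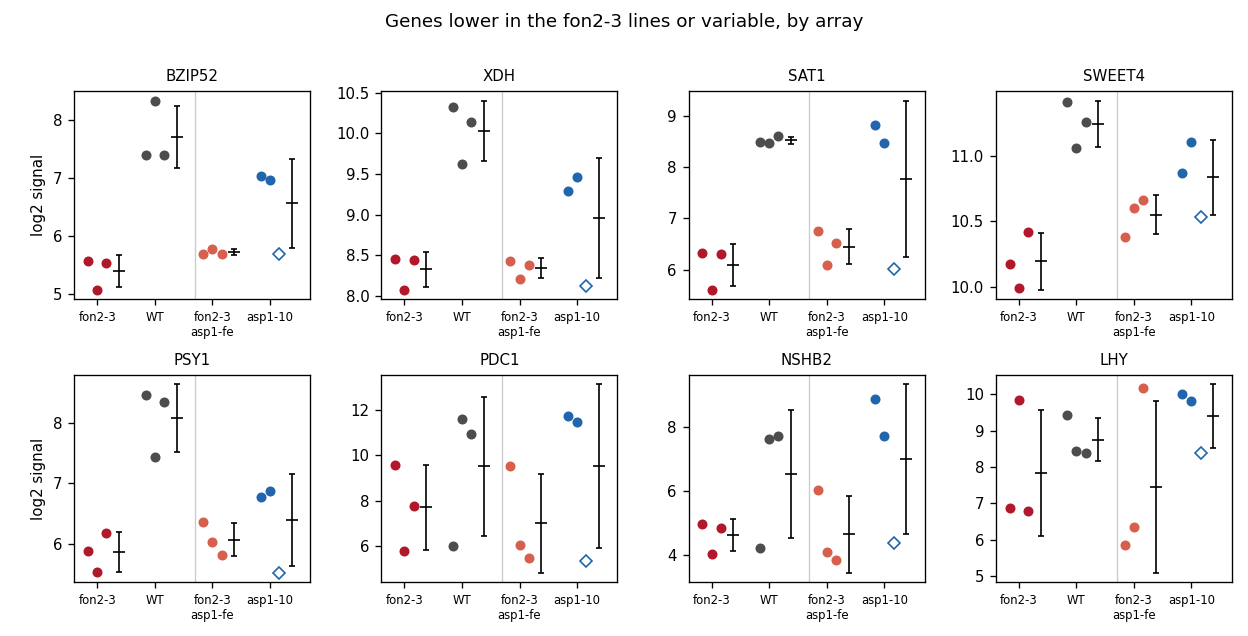
Log2 signal of 8 genes that were lower in the fon2-3 lines or varied between arrays, in the order fon2-3, WT, fon2-3 asp1-fe and asp1-10; points are arrays, the open diamond is asp1-10 replicate 3, and bars are the mean ± SD of 3 arrays. For BZIP52, XDH and SAT1 the diamond lies with the fon2-3 lines, and for PDC1 the arrays of a genotype spread over several log2 units.

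Some of the largest differences in level were within genotypes. PDC1 (LOC4339066), which encodes the first enzyme of ethanol fermentation, had signals of 9.55, 5.81 and 7.76 in fon2-3, against 6.02, 11.58 and 10.94 in WT. It read 9.51, 6.05 and 5.49 in fon2-3 asp1-fe, against 11.72, 11.46 and 5.35 in asp1-10. High and low arrays occurred in all 4 genotypes, and the main effect of -2.15 ± 1.29 did not pass with or without asp1-10 replicate 3 (adjusted p in limma 0.404 and 0.13).

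NSHB2, a non-symbiotic hemoglobin that low oxygen induces, read 4.95, 4.03 and 4.84 in fon2-3, against 4.20, 7.64 and 7.74 in WT. It read 6.03, 4.07 and 3.82 in fon2-3 asp1-fe, against 8.90, 7.73 and 4.36 in asp1-10. The high arrays were WT replicates 2 and 3 and asp1-10 replicates 1 and 2, which were also the highest for PDC1. The low oxygen and fermentation list had 18 genes, 9 of them dim, with a median of -0.37 and 4 positive. Without asp1-10 replicate 3 there were 4 lower, beside 3.05% of all genes, namely NSHB2, the cytosolic glyceraldehyde-3-phosphate dehydrogenase GAPC3, CIPK15, a kinase of the rice response to low oxygen, and the starch-degrading amylase AMY3D.

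The clock genes LHY and PCL1, chosen because their values vary between arrays, also varied within genotypes. PRR37, another gene of the clock list, varied less. Its SD was 0.14 in fon2-3, 0.07 in WT, 0.09 in fon2-3 asp1-fe and 0.17 in asp1-10. The PCL1 probe was dim, with every genotype mean under 5.55. LHY (LOC4344703), a MYB factor that peaks at dawn, read 6.88, 9.83 and 6.79 in fon2-3, against 9.43, 8.43 and 8.38 in WT. It read 5.84, 6.34 and 10.16 in fon2-3 asp1-fe, against 10.00, 9.82 and 8.40 in asp1-10. PCL1 (LOC4326391), an evening-phased factor, read 5.19, 3.45 and 6.80 in fon2-3, against 4.42, 5.38 and 5.79 in WT, and 6.25, 6.26 and 2.83 in fon2-3 asp1-fe, against 3.69, 3.38 and 4.09 in asp1-10. The fon2-3 arrays where LHY was high were those where PCL1 was low, replicate 2 of fon2-3 and replicate 3 of fon2-3 asp1-fe. The time of dissection was not given in the labels, and its part in these values was not tested.

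The genes of the CLAVATA pathway and its partners did not pass in any fit of the main effect. FON1 (LOC4342080), the receptor kinase, read 6.47, 7.66 and 6.37 in fon2-3, against 5.57, 6.0 and 6.69 in WT. It read 6.39, 6.46 and 7.39 in fon2-3 asp1-fe, against 6.86, 6.81 and 7.20 in asp1-10. The fon2-3 lines each overlapped their own control, while every asp1-10 array lay above every WT array. Its main effect was 0.27 ± 0.30 (adjusted p in limma 0.672). WOX4 (LOC4337218), a WUSCHEL-related homeobox gene that maintains rice meristems, lay between 5.55 and 5.92 in fon2-3 and 5.85 and 5.96 in fon2-3 asp1-fe, against 5.93 to 6.04 in WT and 5.79 to 5.94 in asp1-10, a main effect of -0.10 ± 0.09.

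Of the 6 measured genes in the CLAVATA and WUSCHEL list, 4 were dim, namely WOX6, WOX7, QHB and the CLE peptide gene CLE202. The median change was 0.05. The ASP1-related corepressor ASPR1 (TPR3) was high on all arrays, between 11.25 and 11.46, with a main effect of 0.02 ± 0.07. Its sign turned under other scalings. ASPR2 had a main effect of 0.14 ± 0.15, with fon2-3 at 8.39, 9.45 and 9.03 against 8.74, 8.74 and 8.78 in WT, and fon2-3 asp1-fe at 10.88, 10.75 and 11.13 against 11.02, 10.84 and 10.68 in asp1-10.

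Of the 7 measured KNOX and related homeobox genes, OSH15 and OSH71 passed between fon2-3 and WT, both higher, where 3.91% of all genes were higher. None of the 7 passed in the main effect. OSH15 (LOC4342320) read 7.43, 8.18 and 7.85 in fon2-3, against 6.38, 6.79 and 7.12 in WT, and passed there with a change of 1.06 (adjusted p in limma 0.0407). It read 7.61, 8.46 and 8.24 in fon2-3 asp1-fe, against 7.88, 8.02 and 7.86 in asp1-10, a change of 0.18. OSH71 (LOC4337701) likewise rose by 1.07 against WT (adjusted p in limma 0.033) and changed by -0.10 between the asp1 mutant lines.

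OSH1 (LOC4333973) read 8.0, 8.79 and 8.37 in fon2-3, against 7.24, 8.05 and 7.82 in WT, and 8.64, 9.06 and 8.91 in fon2-3 asp1-fe, against 8.39, 8.68 and 8.45 in asp1-10. Its main effect of 0.52 ± 0.17 did not pass (adjusted p in limma 0.151). These 7 genes had a median of 0.68 between fon2-3 and WT and of -0.06 between the asp1 mutant lines. The difference between these comparisons was tested gene by gene and did not pass for OSH15 (adjusted p in limma 0.344) or OSH1 (0.718).

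The 10 measured markers of inflorescence and branch meristems had a median change of 0.23. Their mean lay between 6.76 and 7.83 on the arrays with fon2-3 and between 6.23 and 7.74 on those without, and 1 of them, FZP, was dim. None of the 10 passed with or without asp1-10 replicate 3. LAX1 (LOC4327431), which marks the sites of new axillary meristems, varied widely within fon2-3 (5.42, 9.33 and 4.98) and WT (4.50, 7.13 and 7.18). It read 5.51, 5.66 and 6.35 in fon2-3 asp1-fe, against 8.09, 7.62 and 7.99 in asp1-10. Every fon2-3 asp1-fe array thus lay below every asp1-10 array at LAX1, a difference that did not pass with all arrays. The floral organ markers, 6 genes of which 3 were dim, had means of 4.88 to 5.07 with fon2-3 and 4.73 to 5.29 without. The 11 anther and tapetum markers had means of 6.47 to 6.60 with fon2-3 and 6.28 to 6.75 without, and none passed. The 12 secondary wall and vascular markers had means of 4.92 to 5.28 with fon2-3 and 4.92 to 5.50 without, 8 of them were dim, and BC1L2 passed higher without asp1-10 replicate 3.

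Over the 31 lists no member passed in the main effect, beside 0.0264% of all genes. Lists with positive medians that have not been named yet were YABBY (0.37, all 6 genes positive, 1 higher without asp1-10 replicate 3), inflorescence architecture (0.18, 15 genes, 3 higher), SPL (0.09, 7 genes, none) and chromatin (0.09, 9 genes, 1 higher). Lists with negative medians were NAC (-0.26, 7 genes, 1 lower without that array), heat shock and chaperones (-0.20, 28 genes, 2 higher), bZIP (-0.10, 16 genes, 2 lower), abscisic acid and dehydration (-0.09, 46 genes, 6 lower), MADS-box (-0.08, 21 genes, 1 lower) and water and sugar transport (-0.07, 34 genes, 5 lower). Without that array 6.1% of all genes were higher and 3.05% lower, so counts such as the 2 of 28 heat shock genes lie near the share over all genes. Most members of the abscisic acid list are type 2C protein phosphatase genes, and so were its 6 lower members. The 2 heat shock members that passed were the factors HSF12 and HSF22, both higher with no overlap between the groups, while 7 of the 28 genes were positive. The other medians were 0.04 for the circadian clock (10 genes, 1 lower without that array), 0.01 for jasmonate and defence (37 genes, 3 higher and 1 lower), 0.00 for auxin synthesis and transport (6 genes, 1 higher) and -0.02 for ion and nutrient transport (84 genes, 3 higher and 2 lower). They were -0.05 for secondary wall and vascular genes (75 genes, 4 higher and 2 lower) and -0.07 for WRKY (5 genes, 1 lower). The gibberellin list (0.04, 13 genes) and light and flowering list (0.03, 15 genes) had no member past the threshold with or without that array.

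A few genes differed between the comparisons, 4 of 15140 by the test of the difference (0.0264%), 1 in the positive direction (0.00661%) and 3 in the negative (0.0198%). LOC4326339 read 4.23, 4.01 and 3.69 in fon2-3, against 3.31, 3.52 and 4.05 in WT, and 6.51, 7.0 and 7.08 in fon2-3 asp1-fe, against 3.88, 3.45 and 3.98 in asp1-10. It was high in fon2-3 asp1-fe alone and at or below 4.23 on every other array. Its change was 3.09 between the asp1 mutant lines (adjusted p in limma 0.000591) and 0.35 between fon2-3 and WT, and the first of these passed with each array left out. The test of the difference, 2.74, gave an adjusted p of 0.0422 in limma and passed in 3 of the 12 leave-one-out fits. Whether fon2-3 with asp1-fe or the asp1-fe line itself carries this signal cannot be told apart.

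DL (LOC4332058), a YABBY factor that specifies carpels and the leaf midrib, read 10.04, 9.57 and 10.18 in fon2-3, against 10.14, 10.38 and 10.06 in WT. It read 10.22, 10.14 and 10.24 in fon2-3 asp1-fe, against 8.52, 8.61 and 8.99 in asp1-10. The asp1-10 arrays lay below all others, and the ranges of the other 3 genotypes overlapped. DL rose by 1.49 between the asp1 mutant lines (adjusted p in limma 0.0219) and changed by -0.26 between fon2-3 and WT, and the difference of 1.76 had an adjusted p in limma of 0.0643. The call between the asp1 mutant lines held in 4 of the 12 leave-one-out fits, including that without asp1-10 replicate 3. LOC4341024 was the remaining gene to pass between the asp1 mutant lines, with 6.70, 6.63 and 6.67 in fon2-3 asp1-fe, against 5.53, 5.91 and 5.64 in asp1-10, a change of 0.97 that passed in 3 of the 12 leave-one-out fits.

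LOC4340483, LOC4341846 and LOC4344111 passed the test of the difference in the other direction. LOC4340483 read 7.71, 7.80 and 7.81 in fon2-3, against 6.85, 6.96 and 6.91 in WT, and 7.55, 7.53 and 7.49 in fon2-3 asp1-fe, against 7.95, 7.78 and 8.14 in asp1-10. WT was the lowest genotype at all 3 genes, with adjusted p values in limma of 0.0422, 0.0497 and 0.0497. Among named genes the smallest p-values of the difference belonged to DL, IAA26, YSL2, HGGT and PRR37, none of which passed. PRR37 (LOC4344399), a pseudo-response regulator of the clock and of heading date, read 9.37, 9.63 and 9.42 in fon2-3, against 10.00, 9.87 and 9.97 in WT, and 9.38, 9.45 and 9.27 in fon2-3 asp1-fe, against 8.84, 9.10 and 8.79 in asp1-10. Its level was lower in fon2-3 than in WT by 0.48 (adjusted p in limma 0.0462), while the change between the asp1 mutant lines was 0.46 and did not pass.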

How the data were processed

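RNA from 12 samples was hybridised to 1-colour Affymetrix arrays. The deposited values are log2 signals, judged from their range; the authors made them with Expression Console 1.3, per the submitters' processing notes, while the summary method, background step and log base were not stated there. Gene symbols came from the platform annotation, updated through the gene table of assembly ASM3414082v1, which matched all 15140 genes. A gene was represented by its probe with the highest mean. Models were fitted with limma 3.58.1 under R 4.3.3 to all 54922 probes: fon2-3 plus asp1 status (9 residual degrees of freedom) for the main effect, and 1 mean per genotype (8 residual degrees of freedom) for the comparisons within it and the averaged fit. Tests were two-sided with Benjamini-Hochberg adjustment and a threshold of 0.05, and were tested on simulated data. With 3 arrays per genotype, the number of arrays limits the precision. The rule for named genes took core genes, the largest changes past the threshold in the main effect, called list members, the 5 smallest p-values of the difference and 4 variable genes. Members and lists were chosen with earlier results of these data known. Gene lists were matched by symbol and were not tested. Replicate numbers did not pair the arrays. Sequences and positions are not reported here.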

Additional observations from a re-analysis of the deposited data

Results flagged for a closer look

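Across the 52 named genes tested in groups of 6 arrays, 4 of 104 groups held an array far from the other 5, and chance flags about 1 in 20. DL in fon2-3 replicate 2 read 9.57, with the nearest array with fon2-3 at 10.04. OsC3H23 in fon2-3 asp1-fe replicate 2 read 10.12, with the nearest at 9.86. RR1 in fon2-3 asp1-fe replicate 1 read 7.44, with the nearest at 7.76. BZIP52 in fon2-3 replicate 2 read 5.08, with the nearest at 5.54.

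At 4 genes the change in fon2-3 asp1-fe against asp1-10 differed from that in fon2-3 against WT in a test of the difference itself. LOC4326339 changed by 3.09 and 0.35 in these comparisons (adjusted p in limma 0.0422) and LOC4340483 by -0.43 and 0.87 (0.0422). LOC4341846 changed by -0.43 and 0.64 (adjusted p in limma 0.0497) and LOC4344111 by -0.35 and 1.13 (0.0497).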

How the results depend on the processing

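The number of probes past the threshold depended on the processing. For the main effect, 11 probes became 355 in the averaged fit, 1 with replicate number as a block, 2 after cyclic loess, 3 with arrays centred on their median, 32 without dim probes, 19 with a variance trend and robust prior, 1232 with array weights, 3 at a log2 change of at least 1, and 242 with 1 probe per gene. Leaving out each array gave 1 to 4307, the highest without asp1-10 replicate 3. In the averaged fit, chosen for this after seeing the data, it gave 4666 without asp1-10 replicate 3, 302 without WT replicate 2, 20 without fon2-3 asp1-fe replicate 3, 6 without WT replicate 3 or fon2-3 replicate 2, 4 without asp1-10 replicate 1 or fon2-3 asp1-fe replicate 2, and 8 to 16 otherwise. For fon2-3 against WT, 2866 probes became 1475 with the replicate block, 4718 without dim probes, 4421 with array weights and 1134 at a log2 change of at least 1, with 1 to 4554 when each array was left out. For fon2-3 asp1-fe against asp1-10, 8 probes became 4 with the replicate block, 14 without dim probes and 3 with only the 6 arrays compared, with 4 to 100 when each array was left out. For the difference between them, 7 probes became 2 with the replicate block, 4 after cyclic loess, 22 without dim probes and 12 with the trend and robust prior, with 1 to 25 when each array was left out. The cause was not tested. The replicate numbers did not pair the arrays: of 18 same-numbered pairs, 2 had a correlation of deviations over 0.1, with a range of -0.18 to 0.11.

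Values were compared over all alternatives for 67 genes, some of which had a locus number and no name. Of 2208 values, 1869 kept their direction and side of the threshold, 217 passed where they had not and 84 no longer passed. Another 38 turned sign, in 5 genes that passed in neither case. ASPR1 was -0.060 after cyclic loess, -0.0014 with arrays centred and -0.0039 without asp1-10 replicate 3. HGGT was -0.0064 with arrays centred and -0.089 to 0.13 in the main effect with single arrays left out; in the averaged fit it was -0.00015 without fon2-3 replicate 1, -0.029 without fon2-3 replicate 2, -0.032 without asp1-10 replicate 2 and -0.0022 without fon2-3 asp1-fe replicate 3. YSL2 was -0.22 to 0.090 in the main effect with single arrays left out, and 0.016, 0.050 and 0.013 in the averaged fit without WT replicate 2, WT replicate 3 and fon2-3 asp1-fe replicate 2. PRR37 was -0.088 to 0.065 in the main effect, and 0.0043, 0.016, 0.0033, 0.037 and 0.015 in the averaged fit without WT replicate 1, fon2-3 replicates 1 and 3, asp1-10 replicate 2 and fon2-3 asp1-fe replicate 3. IAA26 was -0.049 to 0.30 in the main effect, and -0.019 in the averaged fit without fon2-3 replicate 2. Dim probes, 46.5% of the table, limit how well low genes can be compared.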
